A study of Mus musculus with 4 samples.

Results

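mmu-miR-201 and mmu-miR-547 are 2 of the 567 mouse miRNAs on the array and lie next to each other on the X chromosome. The pair was chosen by name from earlier results of these same arrays, in which both were higher after androgen suppression, so every value below is a description and no p-value is given. RNA came from Sertoli cells isolated from testes of adult B6129 males aged 5 to 7 weeks, with 6 mice pooled for each group, within the 5 to 7 that the labels give. Sham mice received a Silastic tube implant and saline, Flut+Acy mice an implant with the antiandrogen flutamide plus an injection of the GnRH antagonist acyline at 20 mg/kg, and Flut+Acy+T mice the same flutamide and acyline together with a testosterone implant. The labels themselves name these arrays only control, flutamide and testosterone. There was 1 Sham array, 2 Flut+Acy arrays and 1 Flut+Acy+T array, and the sources used here do not say whether the Flut+Acy arrays hold separate pools, so their spread may be technical.

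A miRNA is a short RNA cut from a hairpin precursor. It pairs with target mRNAs mainly through its seed, bases 2 to 8 from the 5′ end, so that miRNAs with the same seed tend to share targets. Sertoli cells are the somatic nurse cells of the seminiferous tubule and carry the androgen receptor through which testosterone sustains sperm production. The stretch of the mouse X chromosome between Slitrk2 and Fmr1 holds many testis-expressed miRNA genes that have changed quickly in evolution, and the pair is one of its smaller groups.

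The deposited array files place both members on chromosome X of the mm9 build, mmu-miR-201 at chrX:65241310-65241331 and mmu-miR-547 at chrX:65241558-65241576, 226 bases apart. In the RefSeq gene table of GRCm38.p6 both are transcribed from the minus strand, no other gene lies between or across them, and the neighbours are the protein-coding gene 4933436I01Rik on one side and Mir509 on the other. On the array the next miRNA was mmu-miR-465a-5p at 1149 kb on the low-coordinate side and mmu-miR-509-3p at 21.7 kb on the other. The array names give no arm. The members' starts are 248 bases apart in the files, and of the 4 possible pairings of arms in RefSeq only that of mmu-miR-201-5p with mmu-miR-547-3p has this spacing. The mature sequences of these arms (RefSeq, GRCm38.p6) are shown with the seed in capitals, because the seed is where the members differ in likely targets:
mmu-miR-201-5p: uACUCAGUaaggcauuguucuu
mmu-miR-547-3p: cUUGGUACaucuuugagugag

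The seeds differ, and the longest run of bases common to both mature miRNAs is 4 long. No other of the 1738 mature mouse miRNAs in the RefSeq table has either seed, so neither member shares its seed with another miRNA in that table. The mature miRNAs are 22 and 21 bases long, with 8 and 9 of these bases G or C. The opposite arms, mmu-miR-201-3p and mmu-miR-547-5p, were not on the array. The hairpins follow, 66 and 78 bases long, with the arm that the array measured in capitals, to show that it is the 5′ arm in one precursor and the 3′ arm in the other:
Mir201: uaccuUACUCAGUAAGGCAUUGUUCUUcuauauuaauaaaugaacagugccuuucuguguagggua
Mir547: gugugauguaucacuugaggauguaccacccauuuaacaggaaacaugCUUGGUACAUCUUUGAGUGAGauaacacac

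Each member was read by 2 probes with 10 spots each. By their coordinates the probes of mmu-miR-201 cover bases 1 to 22 (A_54_P2390) and 2 to 22 (A_54_P2389), and those of mmu-miR-547 start at base 3 (A_54_P2817) and base 4 (A_54_P2816). All 4 probes reach the 3′ end.

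Both members read low in Sham and far higher in Flut+Acy. The lowest detected miRNA of the Sham array read 2.67 units. The total signal, which the scanner software sums over a miRNA's probes and gives with its own error, was 27.7 ± 3.21 units for mmu-miR-201 in Sham. Flut+Acy gave 603 ± 43.2 and 645 ± 45.9 units, and Flut+Acy+T gave 461 ± 129 units. Sham was far below the other arrays, and the error interval of Flut+Acy+T (332 to 590 units) overlapped that of the first Flut+Acy array (560 to 646 units) but not that of the second (599 to 691 units). For mmu-miR-547 the total signal was 10.6 ± 2.59 units in Sham and 224 ± 16.8 and 300.2 ± 22.2 units in Flut+Acy. On the Flut+Acy+T array it was 106 ± 124 units, an error larger than the signal, and this was the only array on which a member was called not detected. The Flut+Acy arrays did not overlap each other for mmu-miR-547 (207 to 240 against 278 to 322 units), and both were above Sham.

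**Figure D1:**
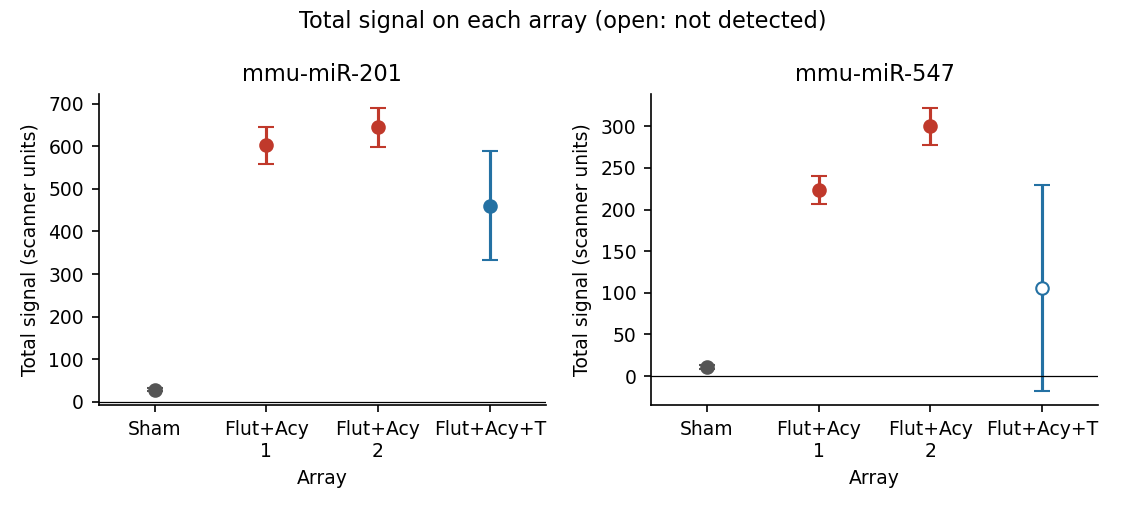
Total signal in scanner units (vertical axis) of mmu-miR-201 and mmu-miR-547 on each of the 4 arrays (horizontal axis), with bars for the error the scanner software gives and an open point where the miRNA was not detected. Both members are lowest on Sham, at 27.7 and 10.6 units, and the bar of mmu-miR-547 on Flut+Acy+T reaches below 0.

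The place of each member among the miRNAs of its own array does not depend on scaling between arrays. mmu-miR-201 had the 112th highest total signal of the 567 in Sham, the 57th on each Flut+Acy array and the 88th on Flut+Acy+T. mmu-miR-547 was 164th in Sham, 87th and 84th in Flut+Acy and 207th on Flut+Acy+T. Both thus stood highest in Flut+Acy. By total signal, mmu-miR-201 on the Flut+Acy+T array lay between its Sham and Flut+Acy places. This place depends on how the spots are summed. With medians of processed spot signals the log2 difference from Sham was 0, and in the deposited table it was -0.21. The place of mmu-miR-547 on Flut+Acy+T belongs to a signal that was not detected and has no order against the others. The total signal of mmu-miR-201 divided by that of mmu-miR-547 does not depend on scaling either, although it does not count molecules because the probes differ. It was 2.62 ± 0.71 in Sham and 2.70 ± 0.28 and 2.15 ± 0.22 in Flut+Acy, with the errors of both signals propagated. From Sham to Flut+Acy the members therefore changed by factors that could not be told apart at this precision, and the ratio on Flut+Acy+T, 4.36 ± 5.24, had an error larger than itself.

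Spot by spot, both probes of each member gave the same order of Sham and Flut+Acy. For mmu-miR-201 in Sham, the 10 spots of A_54_P2389 had a median processed signal of 16.9 units and those of A_54_P2390 of 21.8 units, and 19 of the 20 spots were well above background. The highest of these 20 spots read 36.0 units, whereas the lowest spot on either Flut+Acy array read 339 units. For mmu-miR-547 the medians in Sham were 6.13 units (A_54_P2816) and 10.3 units (A_54_P2817), and only 3 of the 20 spots, all of A_54_P2817, were well above background. Most of its Sham spots were therefore close to background. Its highest Sham spot, at 37.0 units, was among these 3 and carried the software's flag for population outliers. Even so it was below the lowest Flut+Acy spot, at 101 units. Every spot of both members was well above background on both Flut+Acy arrays.

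The Flut+Acy+T array read both members poorly. Of the 20 spots of mmu-miR-201, 2 were well above background there, both of probe A_54_P2390, and these same 2 spots, at 807 and 905 units, carried the software's flag for non-uniform spots. The other 8 spots of this probe reached at most 502 units, with a mean of 337 units against 441 over all 10. The total signal kept the 2 spots: it was the same multiple, 0.664, of the mean over all 10 spots for both probes. None of the 20 spots of mmu-miR-547 was well above background on this array, and 6 of the 10 spots of A_54_P2816 read below 0. On this array, 43.6% of the 672 negative-control spots read higher than the median spot of mmu-miR-201 and 50.9% read higher than that of mmu-miR-547. In Sham these shares were 0.298% and 1.34%, and in Flut+Acy no negative-control spot read that high.

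**Figure D2:**
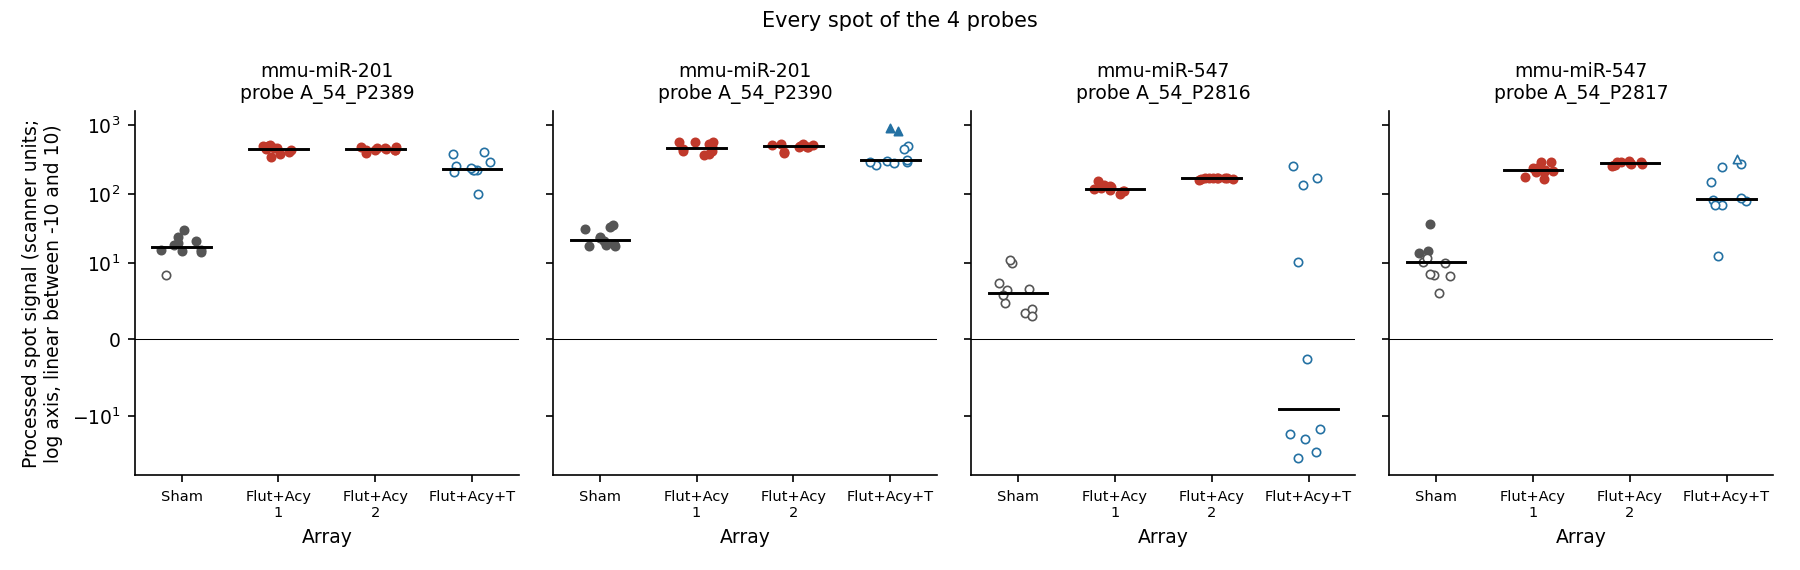
Processed signal of every spot in scanner units (vertical axis, logarithmic except close to 0) for the 2 probes of each member on each array (horizontal axis). Filled symbols are spots well above background, triangles are spots flagged as non-uniform, and lines are medians; Sham and Flut+Acy spots do not overlap, whereas Flut+Acy+T spots of mmu-miR-547 spread from -41.2 to 319 units.

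The arrays as a whole bear on these values. Between 193 (Sham) and 275 of the 567 miRNAs were detected on the first 3 arrays but 102 on Flut+Acy+T, where the negative-control spots had an SD of 1326 units against 2.72 to 7.45 elsewhere and the lowest detected miRNA read 238 units. The summed positive signal was 57940 units in Sham and between 139602 and 201919 units on the other arrays. All 4 arrays were on 1 slide and scanned once. Of the Sertoli cell markers, mmu-miR-202-3p read 103 units in Sham, 312 and 339 units in Flut+Acy and 8.25 units on Flut+Acy+T, where it was not detected, so that the cell type named in the label could not be checked on that array.

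The first comparison asks what suppression of androgen action changed. After quantile normalization across the 4 arrays, which gives each array the same distribution of signals, the log2 normalized signal of mmu-miR-201 was 7.22 in Sham and 9.11 on both Flut+Acy arrays, where its equal rank gave equal values. That of mmu-miR-547 was 6.29 in Sham and higher by 1.71 and 1.83 on the first and the second Flut+Acy array. The log2 difference between Flut+Acy and Sham was 1.89 for mmu-miR-201 and 1.77 for mmu-miR-547, which corresponds to 3.70-fold and 3.42-fold higher normalized signals. Both members passed a 2-fold difference, as did 22.6% of the 283 miRNAs with detection in either group, in this direction (64 miRNAs). Among the 283, 42 had a larger rise than mmu-miR-201 and 45 a larger rise than mmu-miR-547. Under this processing both rises were thus of middling or smaller size among those past 2-fold. The larger rises include miRNAs not detected on Sham, such as mmu-miR-463 at 4.36. The ranking also moved with the processing. The share of miRNAs with a larger rise ran from 2.83% (normexp) to 17.7% (floor of 1 unit) for mmu-miR-201. For mmu-miR-547 it ran from 7.77% to 18.7%.

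The size of this difference depends strongly on scaling, because the arrays differed in overall signal. Before normalization the mean total signal of Flut+Acy was 22.5 times that of Sham for mmu-miR-201 and 24.7 times for mmu-miR-547, while the median log2 difference of the 283 miRNAs was itself 1.75, against -0.18 after normalization. Set against the median of the 283 miRNAs under the same processing, mmu-miR-201 was higher by 2.07 on the log2 scale and mmu-miR-547 by 1.95. Over 11 ways of processing the arrays these relative differences ran from 1.91 to 2.74 and from 1.59 to 2.86. The members were higher in Flut+Acy under each of them.

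The second comparison asks what testosterone changed when added to flutamide and acyline. The log2 normalized signal of mmu-miR-201 was 7.98 on Flut+Acy+T, a difference of -1.13 from Flut+Acy. Across the 297 miRNAs detected on at least 1 of the arrays compared, the median difference was -1.11, and 50.8% (151 miRNAs) were at least 2-fold lower, so that mmu-miR-201 differed from that median by only -0.02. Over the 11 ways of processing, this relative difference ran from -0.97 to 0.13. Most of these 297, however, had no detection call on Flut+Acy+T. Of the 83 that, like mmu-miR-201, were detected on every array compared, 11 (13.3%) were at least 2-fold lower and the median was 0.20, a set that by its choice leaves out miRNAs too low to be detected on Flut+Acy+T. mmu-miR-547 was not detected on Flut+Acy+T, so the size of its fall is not known. Its mean in Flut+Acy was 2.57-fold above the lowest signal of a detected miRNA on that array after quantile normalization. On the unnormalized total signals it was 1.09-fold above that signal. Neither value is a bound on the fall, because undetected miRNAs on that array could read higher than its lowest detected one. For example, mmu-miR-291a-3p read 426 units there without a detection call, against 238 units for the lowest detected miRNA. The measured log2 normalized signal of mmu-miR-547 was 8.06 in Flut+Acy (mean) and 5.32 on Flut+Acy+T. Which member fell more cannot be told from these arrays. The high negative-control signal of the Flut+Acy+T array moves with both values, and its part in them was not tested.

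The third comparison sets the testosterone-treated cells beside Sham. mmu-miR-201 was 0.76 higher on Flut+Acy+T than in Sham on the log2 scale and mmu-miR-547 was 0.97 lower. Of the 218 miRNAs detected on at least 1 of these arrays, 62.4% were at least 2-fold apart in either direction (136 miRNAs), with a median of -0.54. Many of these had no detection call on Flut+Acy+T. Of the 77 detected on both arrays, 12 (15.6%) were at least 2-fold higher on Flut+Acy+T and 6 (7.79%) at least 2-fold lower, with a median of -0.03. Neither member passed 2-fold here, but under the other ways of processing mmu-miR-201 did in 2 of 10 and mmu-miR-547, whose signal on Flut+Acy+T was not detected, in 6 of 10. The direction was not settled for either: the deposited normalized table gives 74.3, 426, 393 and 64.5 for mmu-miR-201 in Sham, Flut+Acy 1, Flut+Acy 2 and Flut+Acy+T, which puts Flut+Acy+T slightly below Sham, and 34.4, 162, 187 and 10.9 for mmu-miR-547. Without normalization both members were instead higher on Flut+Acy+T than in Sham, by 4.05 and 3.32 on the log2 scale.

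**Figure D3:**
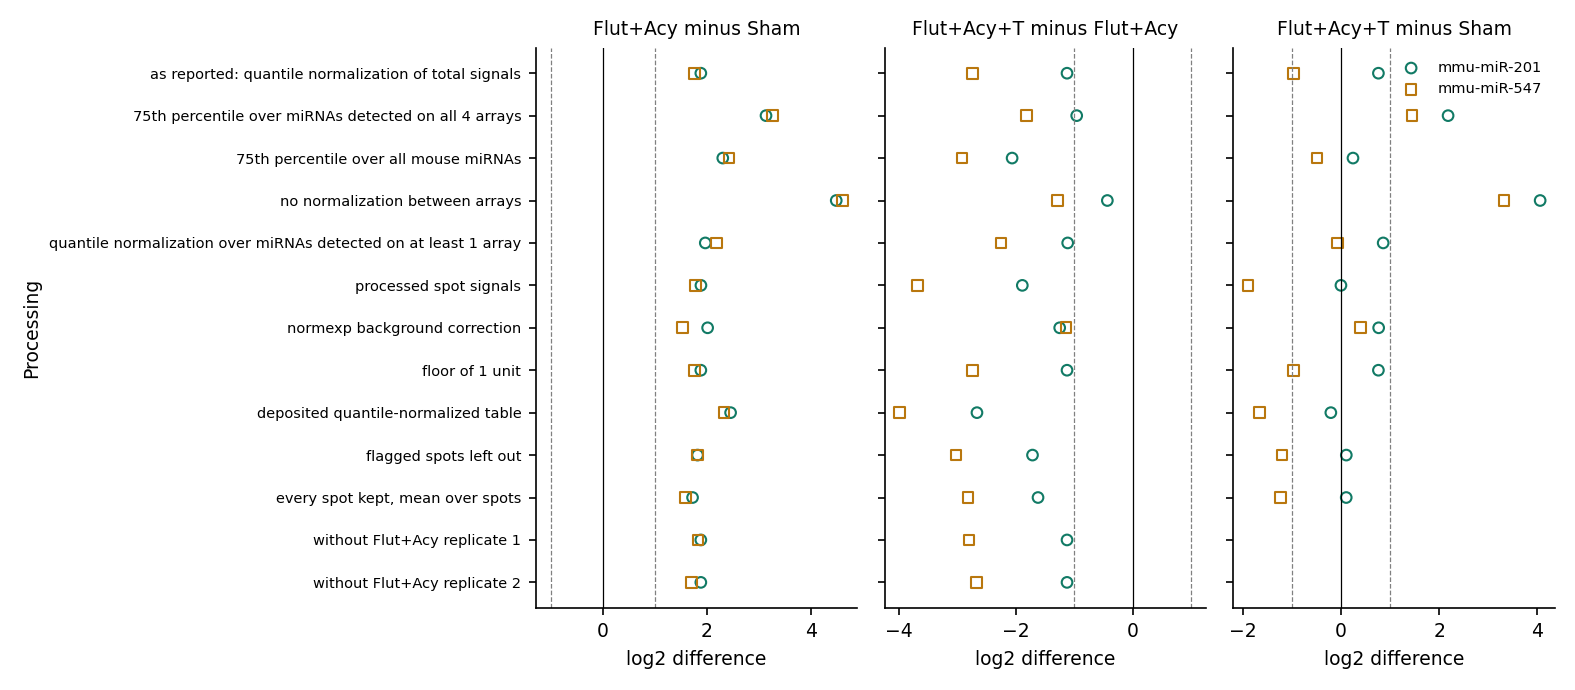
Log2 difference (horizontal axis) of mmu-miR-201 (circles) and mmu-miR-547 (squares) in the 3 comparisons (panels) under each way of processing the arrays (rows), with dashed lines at a 2-fold difference. All points lie above 0 for Flut+Acy minus Sham, from 1.54 to 4.61, and below 0 for Flut+Acy+T minus Flut+Acy, whereas Flut+Acy+T minus Sham has points on both sides.

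The order of measured levels that held in every processing was therefore Flut+Acy above Sham and Flut+Acy above Flut+Acy+T, for each member. The second part has limits: mmu-miR-547 was not detected on Flut+Acy+T. mmu-miR-201 had only 2 of 20 spots well above background there, both flagged, and its error interval overlapped that of the first Flut+Acy array. Every processing also used the same single Flut+Acy+T array. The place of Sham and Flut+Acy+T relative to each other could not be ordered.

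Neighbours on the X chromosome behaved in different ways. mmu-miR-509-3p and mmu-miR-509-5p, the nearest miRNAs, were not detected on any array, so no value can be set beside the pair at that distance. The far cluster that runs from mmu-miR-743a to mmu-miR-465a-5p holds 25 of the 81 miRNAs placed on X. Of its 10 miRNAs detected on Sham, 9 passed a 2-fold rise in Flut+Acy, with log2 differences of the 10 from 0.70 to 2.58 and a median of 2.24. The low end was mmu-miR-878-3p alone, and the next lowest was mmu-miR-470* at 1.88. The pair stood at the low edge of these 9, with mmu-miR-201 at 1.89 and mmu-miR-547, at 1.77, below all of them. Of all 189 miRNAs detected on Sham and on each Flut+Acy array, 26 (13.8%) passed a 2-fold rise. Of the 12 such miRNAs elsewhere on X, leaving out the pair, 1 passed a 2-fold rise and 3 a 2-fold fall, with a median of -0.53. From Flut+Acy to Flut+Acy+T, the 3 miRNAs of the cluster that were detected on Flut+Acy+T had log2 differences between -2.18 and -1.39, and mmu-miR-201 had -1.13. These stand beside the 11 of 83 miRNAs past a 2-fold fall given above.

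**Figure D4:**
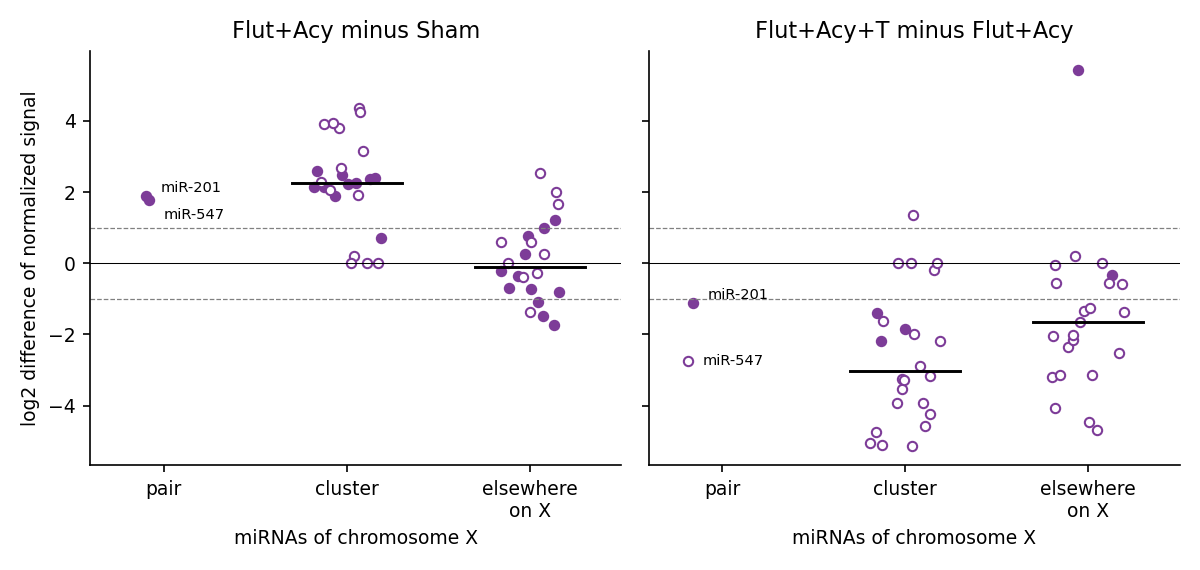
Log2 difference of normalized signal (vertical axis) for the pair, for the cluster from mmu-miR-743a to mmu-miR-465a-5p and for the other miRNAs of chromosome X (horizontal axis), in Flut+Acy minus Sham and in Flut+Acy+T minus Flut+Acy. Each point is 1 miRNA, open where it was not detected on Sham (left) or on Flut+Acy+T (right), lines are medians and dashed lines mark 2-fold. In the left panel the pair, at 1.89 and 1.77, lies below the cluster median of 2.27. That median takes in miRNAs not detected on Sham, and it is 2.24 for the 10 that were.

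The profile over the 4 arrays, centred for each miRNA, was compared with those of 189 miRNAs, each detected on all arrays but possibly Flut+Acy+T. With 4 points per profile these likenesses are descriptions only. Nearest to mmu-miR-201 was mmu-miR-880 of the far X cluster, at a Euclidean distance of 0.33 log2 units, with log2 differences of 2.26 from Sham to Flut+Acy and -1.39 from there to Flut+Acy+T. mmu-miR-34b-5p (0.34) and mmu-miR-34c (0.51) of chromosome 9, miRNAs best known from germ cells in meiosis and after it, followed, and then mmu-miR-15b (0.54) and mmu-miR-19b (0.63). Nearest to mmu-miR-547 were mmu-miR-470* (0.48) and mmu-miR-743a (0.48), both of the far X cluster, then mmu-miR-200a (0.48), mmu-miR-20b (0.57) and mmu-miR-425 (0.65). None of these 5 was detected on Flut+Acy+T, nor was mmu-miR-547, whereas all 5 nearest to mmu-miR-201 were. The members were not each other's nearest: mmu-miR-547 was 27th from mmu-miR-201, and mmu-miR-201 was 26th from mmu-miR-547, at a distance of 1.44 against a median of 2.14 over all pairs of the 189. This distance takes in the Flut+Acy+T value of mmu-miR-547, which was not detected, and so cannot be read as a difference between the members.

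**Figure D5:**
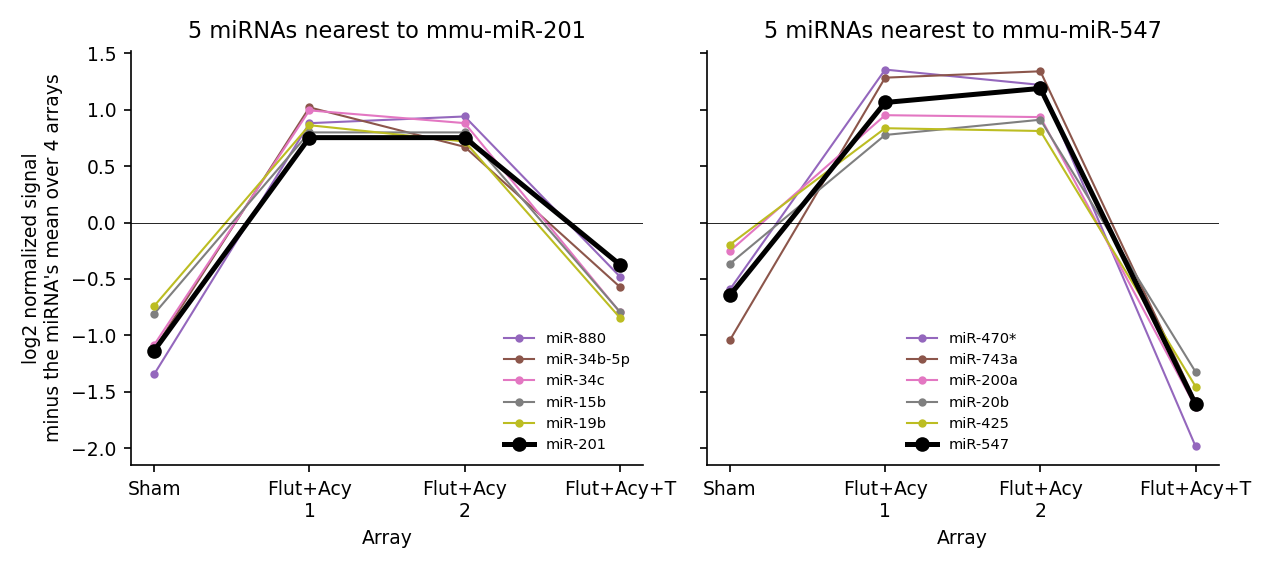
Log2 normalized signal minus each miRNA's mean over the 4 arrays (vertical axis) on each array (horizontal axis), for mmu-miR-201 and mmu-miR-547 (black) and the 5 miRNAs with the nearest profile (colours). Both members rise from Sham to Flut+Acy, and the point of mmu-miR-547 on Flut+Acy+T, at -1.61, is a signal that was not detected.

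After quantile normalization, marker miRNAs of some cells of the testis were higher in Flut+Acy, as the pair was, and those of others were not. Over all 283 miRNAs, 22.6% passed a 2-fold rise and 16.6% a 2-fold fall. Of the 7 miRNAs of the miR-34 and miR-449 families taken as markers of meiotic and postmeiotic germ cells, 5 were detected on Sham or Flut+Acy. Each of the 5 passed a 2-fold rise in Flut+Acy, with a median log2 difference of 2.02. Of these, mmu-miR-34b-3p and mmu-miR-34c* were not detected on Sham and counted only through Flut+Acy. The 3 detected on Sham rose by 1.97 (mmu-miR-34b-5p), 2.02 (mmu-miR-34c) and 1.60 (mmu-miR-449a). Beside them, 26 (13.8%) of the 189 miRNAs detected on Sham and each Flut+Acy array passed a 2-fold rise. The summed total signal of the 7 was 477 units in Sham, 7183 and 7463 units in Flut+Acy and 3472 units on Flut+Acy+T. mmu-miR-449b and mmu-miR-449c were not detected on any array. mmu-miR-34b-5p read 294 units in Sham and 3940 and 4234 units in Flut+Acy. All 3 detected miRNAs of the epithelial miR-200 family also passed (median 1.08), of which mmu-miR-429 was not detected on Sham. So did 3 of 7 of the miR-290 and miR-302 families of undifferentiated germ cells and 1 of 2 miR-202 arms, the Sertoli cell markers. The risers of these last 2 lists were not detected on Sham and counted only through Flut+Acy. In each list the miRNA detected on Sham stayed within 2-fold, mmu-miR-290-5p at 0.31 and mmu-miR-202-3p at -0.37. Among muscle and peritubular markers 0 of 5 passed a 2-fold rise and 4 passed a 2-fold fall, among blood markers 0 of 5 and 2, and the 2 endothelial miRNAs stayed within 2-fold. These falls are relative to the other miRNAs, because the summed total signals rose before normalization. For muscle and peritubular markers the sum was 1785 units in Sham and 2581 and 3094 units in Flut+Acy. For blood markers it was 236 units in Sham and 382 and 432 units in Flut+Acy. The part of such cells in the signal of the pair was not tested, and in a pooled preparation more cells of a type and more RNA per cell cannot be told apart.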

How the data were processed

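The authors hybridized RNA of isolated Sertoli cells to 1-colour Agilent arrays and extracted them with Feature Extraction 9.5.3.1. The deposited scanner files hold background-subtracted intensity for each spot and the total intensity of each miRNA with its error and a detection call. The deposited value table holds quantile-normalized signal on a linear intensity scale. Here quantile normalization was applied to the total signals of the 567 mouse miRNAs on the 4 arrays. Each array's smallest normalized value with a detection call was found, their median (5.46 units) served as a floor, never set under 1 unit in any alternative, and values were converted to log2, and the 2 Flut+Acy arrays were averaged. The 10 viral miRNAs on the array were left out. Differences of at least 2-fold were counted over miRNAs detected on at least 1 array of a comparison. With 1 Sham and 1 Flut+Acy+T array, no test was run, and the number of arrays limits the precision. Normexp used limma 3.58.1, and the other steps Python 3.11.15 with pandas 2.3.3. The members and marker lists were chosen with earlier results of these data known. Named beside the members were their 5 nearest profiles, their neighbours on X and members of the lists. The normalization was tested on simulated data. The promoter windows of the pair were not analysed here.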

Additional observations from a re-analysis of the deposited data

How the results depend on the processing

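In both members Flut+Acy exceeded Sham, and Flut+Acy+T fell short of Flut+Acy, under all 12 alternatives tried. Values below are log2 differences for mmu-miR-201 and then mmu-miR-547. Scaling to the 75th percentile of miRNAs detected on all arrays gave 3.14 and 3.26 for Flut+Acy minus Sham, -0.96 and -1.82 for Flut+Acy+T minus Flut+Acy, and 2.18 and 1.45 for Flut+Acy+T minus Sham. With the percentile of all mouse miRNAs these were 2.31 and 2.43, then -2.07 and -2.92, then 0.25 and -0.49. Without normalization they were 4.49 and 4.61, then -0.44 and -1.29, then 4.05 and 3.32. Quantile normalization of detected miRNAs alone gave 1.97 and 2.19, then -1.11 and -2.25, then 0.86 and -0.066. Medians of processed spot signals gave 1.89 and 1.79, then -1.89 and -3.68, then 0 and -1.89. Normexp correction gave 2.02 and 1.54, then -1.25 and -1.14, then 0.77 and 0.40. The deposited normalized table gave 2.46 and 2.34, then -2.67 and -3.99, then -0.21 and -1.66. A pair of alternatives was added after seeing the data. Leaving out flagged spots gave -1.72 and -3.02 for Flut+Acy+T minus Flut+Acy and 0.11 and -1.20 for Flut+Acy+T minus Sham. Keeping every spot gave 1.73 and 1.59 for Flut+Acy minus Sham, -1.62 and -2.82 for Flut+Acy+T minus Flut+Acy, and 0.11 and -1.23 for Flut+Acy+T minus Sham. A floor of 1 unit left each value as it was. Leaving out either Flut+Acy array left mmu-miR-201 at 1.89 and -1.13, and gave 1.71 to 1.83 and -2.80 to -2.68 for mmu-miR-547.

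The count of miRNAs at least 2-fold higher in Flut+Acy was 100 with the percentile of detected miRNAs, 212 without normalization, 41 with normexp and 26 of 189 when detection on every array was required. Leaving out an array gave 65 to 67. The count at least 2-fold lower after testosterone was added was 51 with normexp and 11 of 83 with detection on every array, and 152 to 153 without an array. The count apart between Flut+Acy+T and Sham was 69 with normexp, 257 with no detection filter and 18 of 77 with detection on every array. The cause of these shifts was not tested. No paired analysis was possible because only Flut+Acy has more than 1 array. The signal of mmu-miR-547 on Flut+Acy+T had no detection call and an error larger than itself, so its level there is not known.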
